A study of Mus musculus with 8 samples.

Results

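The comparison was the interaction between set and fragment: how much more, or less, genes of primary mouse microglia differed between Ecrg4 fragments and controls in the arrays labelled set 2 than in those labelled set 1. It used all 8 of the 8 arrays of the series, 2 in each of 4 cells. Microglia, the resident macrophages of the brain, were prepared from C57BL/6 mice and exposed for 3 h to PBS (vehicle, no protein), to 20 µg/ml of the antibody Fc part alone, or to 20 µg/ml of an Fc fusion with 1 of 2 Ecrg4 fragments, named by their residues as Ecrg4(71-132) and Ecrg4(133-148). Every group thus holds wild-type cells of 1 strain, and both fragments carry the Fc part that the Fc control also carries. Each treatment has 1 array in set 1 and 1 in set 2. In each set the PBS and Fc arrays were the controls and the 2 Ecrg4 arrays the fragment arrays. Nothing in the labels says whether a set is a separate culture, litter or day, so the p-values measure the spread between these arrays alone. That spread holds the difference between PBS and Fc and the difference between the 2 fragments.

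Ecrg4 is a secreted protein that is cut into smaller peptides, and pieces of it bind receptors on leukocytes. Microglia that meet an inflammatory stimulus free the transcription factor NF-kB from its inhibitors. Within hours they make interleukins, chemokines and the prostaglandin-forming enzyme cyclooxygenase-2, and they also make inhibitors that end the signal.

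The promoters of Ptgs2, Il6 and Il1b, the genes that mark the comparison, are shown because these genes had large interactions and reached them from different starting levels. Each sequence runs 5′ to 3′ on the gene's strand from 250 bases before to 50 bases after the start (RefSeq, GRCm38.p6). Capitals mark matches on either strand to the kappaB motif, to TGACG (the core of a cAMP response element) and to TGANTCA (the AP-1 motif).
Ptgs2 (chr1:150099781-150100080, plus strand): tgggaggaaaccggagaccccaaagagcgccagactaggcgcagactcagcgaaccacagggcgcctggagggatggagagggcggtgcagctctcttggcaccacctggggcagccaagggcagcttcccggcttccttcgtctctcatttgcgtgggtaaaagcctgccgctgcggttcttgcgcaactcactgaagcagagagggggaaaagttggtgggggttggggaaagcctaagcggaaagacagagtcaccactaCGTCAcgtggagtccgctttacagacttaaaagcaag
Il6 (chr5:30012864-30013163, plus strand): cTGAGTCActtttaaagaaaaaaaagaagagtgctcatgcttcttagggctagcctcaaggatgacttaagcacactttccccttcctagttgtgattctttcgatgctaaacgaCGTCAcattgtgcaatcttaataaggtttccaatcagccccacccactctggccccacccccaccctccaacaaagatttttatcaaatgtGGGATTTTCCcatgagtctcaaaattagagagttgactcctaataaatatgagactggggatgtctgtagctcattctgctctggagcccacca
Il1b (chr2:129371090-129371389, minus strand): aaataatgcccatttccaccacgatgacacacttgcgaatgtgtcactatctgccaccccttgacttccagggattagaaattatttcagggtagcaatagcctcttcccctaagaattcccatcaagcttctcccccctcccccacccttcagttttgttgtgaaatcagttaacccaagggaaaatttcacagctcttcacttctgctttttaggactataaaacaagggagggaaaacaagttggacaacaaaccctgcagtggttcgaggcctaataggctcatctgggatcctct
The Il6 window holds 1 match to each of the 3 motifs, with the kappaB match starting 44 bases before the start. The Ptgs2 window holds 1 TGACG match, 14 bases into the transcript. These letters are not found in the Il1b window.

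The sets differed without any fragment, on their control arrays at 3 h. Values are log2 signals with the 75th percentile of each array at 0. By limma's test, 6268 of 21535 genes (29.1%) were higher and 4737 (22%) lower in the set 2 controls than in the set 1 controls at an adjusted p of 0.05. Arrays of 1 treatment correlated across probes at 0.928 to 0.948 between sets, while arrays within a set correlated at 0.977 to 0.995. The macrophage gene Csf1r was at 8.03 to 8.16 on the set 1 arrays and at 7.90 to 8.17 on those of set 2, whereas the microglial genes Tmem119 and Sall1 were not well above background on the control arrays of set 2. Of 12 marker genes of fibroblasts and mural cells, 11 were tested, and their summed log2 level was 5.33 to 6.38 in set 1 and 1.03 to 1.36 in set 2. Col1a1, Col3a1, Dcn, Lum and Mgp among them were not well above background on the control arrays of set 2. For 13 of 14 astrocyte markers the median level was -1.09 to 0.08 in set 1 and -5.80 to -3.89 in set 2, although the summed level was higher in set 2 (6.18 to 6.27) than in set 1 (4.96 to 5.52). The median interaction was 0.70 for the tested markers of fibroblasts and mural cells and 0.23 for those of astrocytes. It lay between -0.13 and 0.22 for markers of the oligodendrocyte lineage (13 tested), neurons (10), endothelium (5), border and monocyte-derived macrophages (9), neutrophils (5) and lymphocytes (4). For the markers of fibroblasts and mural cells the median response was -0.46 in set 1 and 0.15 in set 2. For those of astrocytes it was -0.26 and -0.05. Of these markers, 3 of 11 and 3 of 13 were well above background on all 8 arrays, so the medians include signals near the floor. The part of other cells in the responses was not tested. In these bulk samples, fewer cells of a type and less RNA per cell cannot be told apart. All 8 arrays shared a slide and a scan, with the sets in separate columns of the slide, so set and slide column cannot be told apart.

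Ptgs2, which encodes cyclooxygenase-2, had the largest interaction of any gene with a symbol that was well above background on all 8 arrays. In set 1 its level was 1.12 with PBS, 1.15 with Fc, 3.05 with Ecrg4(71-132) and 1.65 with Ecrg4(133-148). In set 2 the same treatments gave -3.91, -2.83, 3.95 and 1.58. Both fragments lay above both controls in each set, and the sets stood far apart in the controls but close together in the fragments. The response, the mean of the fragments minus the mean of the controls, was 1.22 in set 1 (2.32-fold) and 6.13 in set 2 (70.3-fold). The set 2 controls were not far above the floor. The dimmest signals counted as well above background were at -4.13 on the PBS array and -3.72 on the Fc array of set 2. The fold in set 2 rests on those control levels. The interaction was 4.92 ± 1.27 (SE, 95% interval 1.72 to 8.12), with an adjusted p of 0.486 in limma. It was positive for each fragment against each control, which gives 4 pairings, whereas 17.6% of all genes had 4 positive pairings.

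Il6, the gene of the cytokine interleukin-6, showed the same arrangement. Its levels were 2.26, 3.09, 5.12 and 3.30 in set 1 and -2.11, -0.25, 5.66 and 2.65 in set 2, for PBS, Fc, Ecrg4(71-132) and Ecrg4(133-148) in turn. The fragments of the 2 sets again overlapped, and only the controls were apart. The response was 1.53 in set 1 and 5.34 in set 2, and the interaction was 3.81 ± 1.75 (SE; adjusted p of 0.61 in limma). Il1b, the gene of interleukin-1 beta, differed in where the sets parted. Its levels were 1.68, 2.66, 5.67 and 3.33 in set 1 and 0.93, 2.62, 8.57 and 6.4 in set 2. Its controls overlapped between the sets, and its fragment arrays in set 2 were both above those of set 1. The response was 2.33 in set 1 and 5.71 in set 2, with an interaction of 3.38 ± 1.61 (SE; adjusted p of 0.61 in limma). None of the 3 interactions passed the adjusted p of 0.05, and the 95% intervals of Il6 (-0.58 to 8.19) and Il1b (-0.66 to 7.42) reached below 0.

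**Figure D1:**
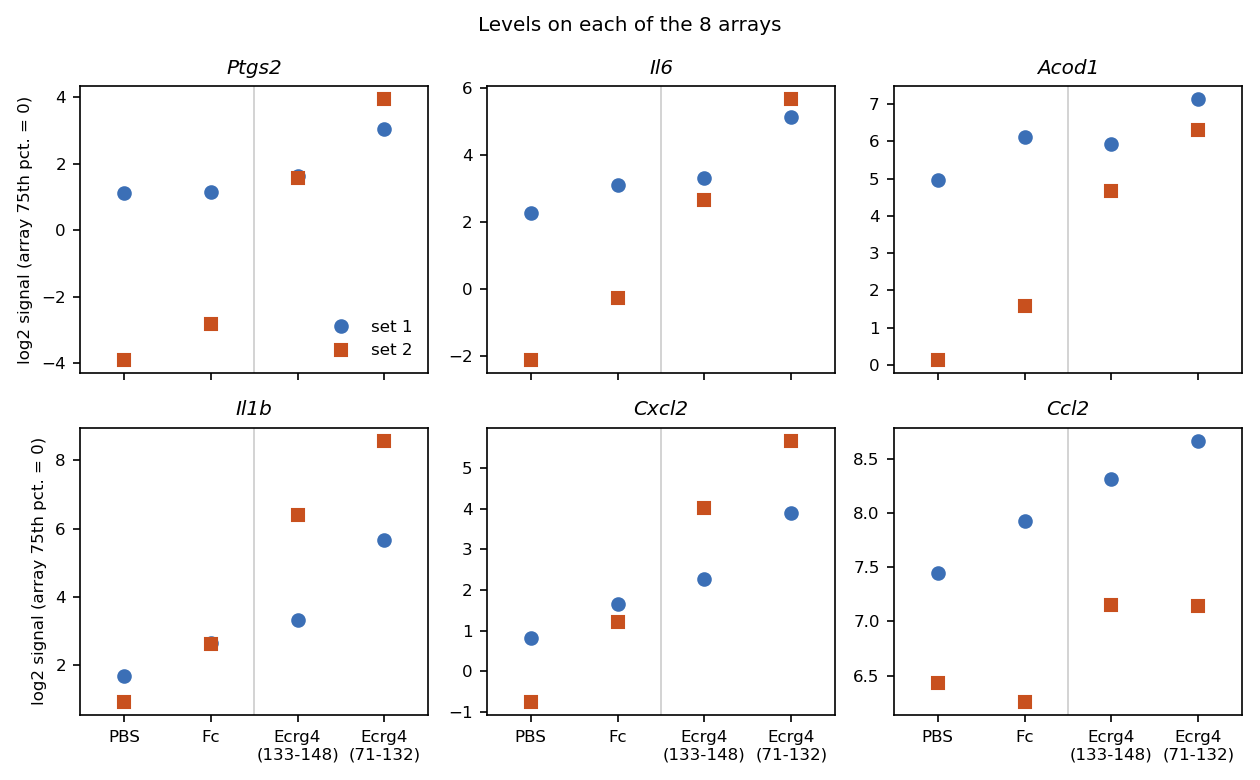
Log2 signal of 6 genes on each of the 8 arrays, scaled to each array's 75th percentile, with the treatments on the horizontal axis and the sets as circles (set 1) and squares (set 2). The squares of Ptgs2, Il6 and Acod1 lie far below the circles in the PBS and Fc columns and near them in the fragment columns, those of Il1b and Cxcl2 lie above the circles with the fragments, and those of Ccl2 run below the circles throughout.

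An interaction is the difference between the sets with fragments (the end) minus that with controls (the start). Start and end name parallel arrays, all at 3 h, and not a course in time. Of all genes tested, 4.11% had an interaction of at least 1 and 2.24% one of -1 or less. A response of at least 1 was found for 0.627% in set 1 and 3.18% in set 2, and one of -1 or less for 1.18% and 2.56%. The start was at least 1 lower in set 2 for 12.7% and at least 1 higher for 9.6%. Genes were put in a response class where the interaction was at least 1 in size and the response in 1 or both sets was at least 1. A response that was positive and larger in set 2 was found for 473 genes (2.2% of those tested), and 190 of these were well above background on all 8 arrays. A negative response that was larger in set 2 was found for 273 genes (1.27%), 60 of them on all 8 arrays. The reverse classes were smaller, with 73 genes (0.339%) positive and larger in set 1 and 167 genes (0.775%) negative and larger in set 1, of which 11 and 7 were well above background on all 8 arrays. Responses of opposite sign, each at least 0.5 in size, were found for 48 genes (0.223%) that were higher in set 2 and 69 (0.32%) that were lower, of which 0 and 4 were well above background on all 8 arrays. Across the 16995 genes well above background on every array, the SD of the response was 0.21 in set 1 and 0.40 in set 2, and the responses of the 2 sets correlated across genes at a Pearson r of 0.53 and a Spearman rho of 0.50. Genes are not independent replicates, and the correlation is a description. Nearest the limit lay Wdfy2 (interaction 1.0) and Siah1a (1.01) just inside, and Kcne3 (-1.0) and Spic (0.99) just outside.

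**Figure D2:**
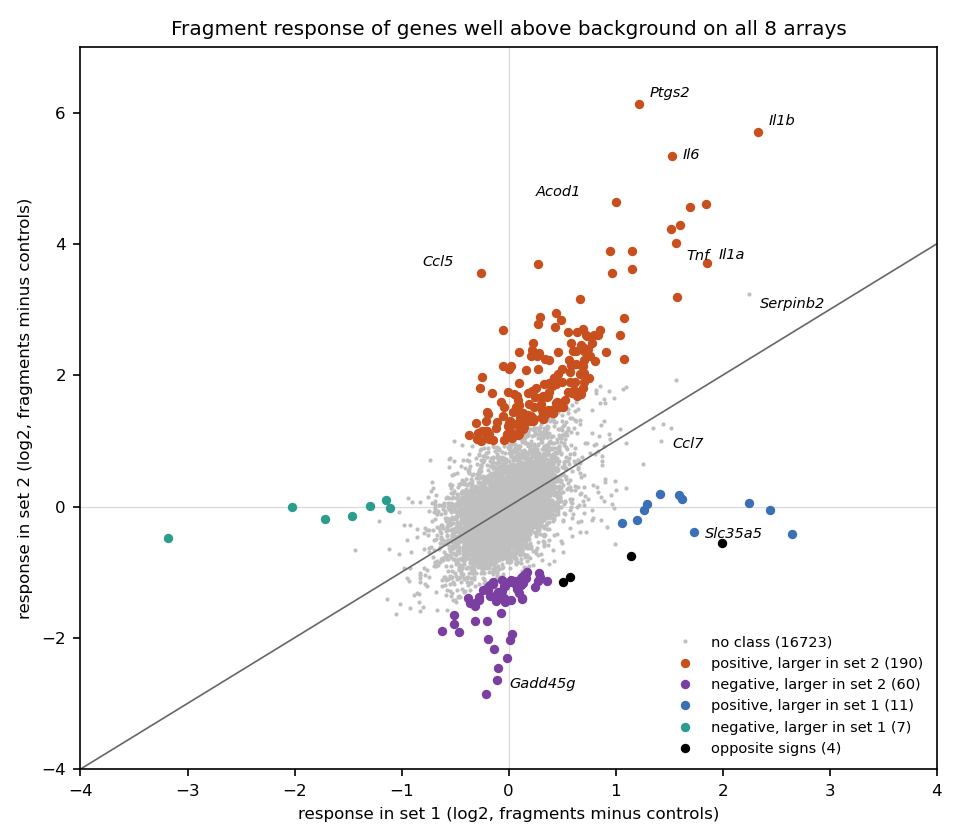
Response in set 2 against response in set 1 (log2, fragments minus controls) for the 16995 genes well above background on all 8 arrays, coloured by response class, with the line of equal response. The 190 genes that were positive and larger in set 2 rise steeply above the line to Ptgs2 at 6.13, while few genes lie along the horizontal axis.

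The genes of the first class differed in where the sets parted. Of the 190 genes, 62 had the difference mostly in the start: their median start was -1.66 and their median end -0.21, so the sets met with fragments. For 77 genes it lay mostly in the end, with a median start of 0.06 and a median end of 1.53. The other 51 had a share of both. Ptgs2 (start -4.50, end 0.41) and Il6 (start -3.86, end -0.05) belonged to the first kind, and Il1b (start -0.40, end 2.99) to the second. Among genes that started at least 1 lower in set 2, 77 of 968 (7.95%) were in the class, against 102 of 14620 (0.698%) of those that started within 1 of each other and 11 of 1407 (0.782%) of those that started at least 1 higher. The start and the interaction share the control arrays. With the start taken from the PBS arrays and the responses from the fragments against Fc, which share no array, the shares were 78 of 969 (8.05%), 90 of 14484 (0.621%) and 19 of 1542 (1.23%). Across all of these genes the start from PBS and the interaction against Fc correlated weakly, at a Pearson r of -0.13 and a Spearman rho of -0.06.

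Several genes with a low start in set 2 came closer to set 1 with the fragments, some of them without reaching it. Acod1, the enzyme that makes itaconate, was at 4.96, 6.12, 7.14 and 5.94 in set 1, against 0.13, 1.58, 6.31 and 4.68 in set 2, in the order PBS, Fc, Ecrg4(71-132), Ecrg4(133-148). In set 1 its fragment and control arrays overlapped, and in set 2 they were apart. Its response was 1.0 in set 1 and 4.64 in set 2, a fold of 2.0 and 24.9, the end was -1.05, and the interaction was 3.63 ± 1.18 (SE; adjusted p of 0.597 in limma). Il4i1, a secreted amino acid oxidase, had levels of 1.12, 1.79, 2.03 and 1.44 in set 1 and -1.93, -0.96, 3.35 and 1.15 in set 2, with responses of 0.28 and 3.70. The overlap in set 1 and the gap in set 2 were as for Acod1. Traf1, an adaptor of TNF receptors, started 3.24 lower in set 2 and ended 0.50 lower, with responses of 1.15 and 3.89. Gpr84, a receptor for medium-chain fatty acids, had responses of 0.70 and 2.70 and an end of -1.15, with both fragment arrays of set 2 below both of set 1. Icosl, a ligand of T cell costimulation, had responses of 0.46 and 2.36, and Cd14, a co-receptor for lipopolysaccharide, 0.50 and 2.10.

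Other genes started near the level of set 1 and passed it. Il1a, the gene of interleukin-1 alpha, was at 0.01, 0.73, 3.18 and 1.28 in set 1, against 0.44, 1.19, 5.43 and 3.63 in set 2. Both fragment arrays of set 2 lay above both of set 1. Its responses were 1.86 and 3.72. The inhibitors of NF-kB Nfkbie (0.34 and 2.25), Nfkbid (0.56 and 2.65) and Tnip1 (0.61 and 1.78), the AP-1 factor Maff (0.40 and 1.84) and the caspase-8 regulator Cflar (0.67 and 2.02) were alike in this, each with a start within 0.5 of set 1. Tnf had a share of both, with a start of -1.36 and an end of 1.09. Its levels were 3.32, 4.32, 6.07 and 4.69 in set 1 and 1.74, 3.19, 7.33 and 5.62 in set 2. The fragments lay above the controls in both sets, with responses of 1.56 and 4.01.

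**Figure D3:**
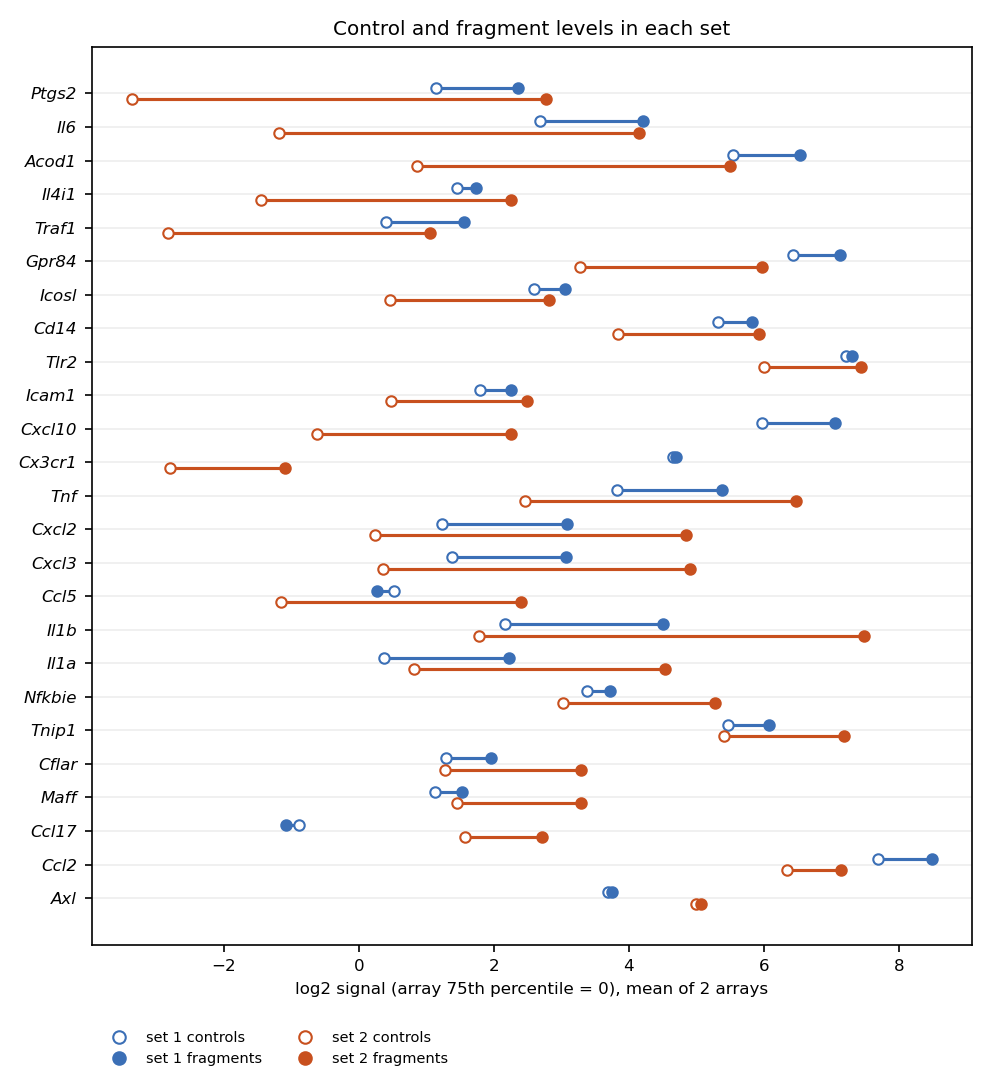
Mean log2 signal of the 2 control arrays (open circles) and the 2 fragment arrays (filled circles) of each set for 25 genes, set 1 above set 2 in each row. From Ptgs2 to Icam1 the filled circles of set 2 reach those of set 1 or come near them from a lower start, from Il1b to Maff they pass them from a like start, and Cxcl10 and Cx3cr1 stay far below.

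Among the 27 gene lists, the pro-inflammatory cytokines had the largest median interaction. Of 20 pro-inflammatory cytokine genes 16 were tested, and 9 of these were positive and larger in set 2 (2.2% of all genes were). The median response was 0.55 in set 1 and 2.05 in set 2, and the median interaction was 1.65, against -0.03 over all genes tested. None of the 16 passed the adjusted p of 0.05 for the interaction. Tnfsf9, the ligand of the costimulator 4-1BB, had responses of 0.74 and 2.40, and Clcf1, a cytokine of the interleukin-6 family, -0.20 and 1.44. The growth factors Csf2 and Csf3 were not well above background on the set 2 control arrays, so only a bound can be given there: the fragment arrays of set 2 were at least 10-fold higher for Csf2 and at least 6.3-fold higher for Csf3. Il18, whose product needs the inflammasome to mature, showed no such pattern. It was at 2.03, 2.22, 2.21 and 1.94 in set 1, against 3.94, 3.96, 3.98 and 3.77 in set 2, so that fragments and controls overlapped in both sets, and its interaction was -0.02 ± 0.18 (SE).

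The chemokines split. Of 22, 19 were tested, and 7 were positive and larger in set 2 (2.2% of all genes were). The median interaction was 0.06. The neutrophil attractants Cxcl2 and Cxcl3 belonged to the 7. Cxcl2 was at 0.81, 1.66, 3.89 and 2.27 in set 1, against -0.75, 1.21, 5.67 and 4.03 in set 2, with responses of 1.84 and 4.62. Its controls overlapped between sets and its fragments were higher in set 2. Cxcl3 had responses of 1.69 and 4.56. Cxcl1, of the same family, was not well above background on the set 2 control arrays and was at least 4.02-fold higher on the fragment arrays there, while its response in set 1 was -0.26. Ccl5, which attracts T cells and monocytes, was at -0.52, 1.56, 1.22 and -0.69 in set 1, where the arrays interleaved, and at -0.88, -1.43, 4.05 and 0.76 in set 2, where both fragments were higher. Its interaction was 3.82 ± 1.88 (SE). Cxcl10, an interferon-induced chemokine, was far apart between the sets throughout, at 5.35 to 7.79 in set 1 and -0.75 to 3.13 in set 2, with responses of 1.08 and 2.87. Cxcl16 had responses of 0.10 and 1.55.

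Ccl2, a monocyte attractant and the chemokine with the smallest interaction, did not follow. It was at 7.45, 7.93, 8.67 and 8.32 in set 1, against 6.43, 6.26, 7.14 and 7.15 in set 2. Fragments lay above controls in both sets, the responses were 0.80 and 0.81, and the interaction was 0.00 ± 0.27 (SE, 95% interval -0.69 to 0.69). This interval leaves out a difference of 1 between the responses. Ccl7 and Ccl12, named after their values were seen, had responses of 1.43 and 0.99 and of 1.26 and 0.64. Of 26 symbols on all 8 arrays with a response of at least 1 in set 1, 16 had an interaction of at least 1, 8 lay within 1 and 2 were at or below -1. Beside Ccl7 and Ccl12, those within 1 included Il1rn, the interleukin-1 receptor antagonist (1.52 and 1.19), Ch25h, the enzyme of 25-hydroxycholesterol (1.56 and 1.93), and Serpinb2, an inhibitor of plasminogen activators (2.25 and 3.23), likewise named after their values were seen. Il1b and its antagonist thus had unlike patterns: Il1rn was at -0.47, -0.08, 1.37 and 1.11 in set 1, against 2.15, 2.07, 3.84 and 2.77 in set 2, higher in set 2 on every treatment.

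Genes of the NF-kB pathway nearly all had interactions of 1 sign. Of 29, 28 were tested, 27 had a positive interaction where 43.9% of all genes did, and 24 were positive in all 4 pairings where 17.6% of all genes were. In set 2 both fragments lay above both controls for 27 of the 28 (26.2% of all genes), and in set 1 for 16 (27.7%). The median response was 0.34 in set 1 and 1.45 in set 2. In all, 15 members were positive and larger in set 2, against 2.2% of all genes. The subunits among them were Nfkb1 (0.44 and 1.58), Nfkb2 (0.22 and 1.77) and Relb (0.01 and 1.30). The regulators were Nfkbie, Nfkbid, Tnip1, Nfkbiz (0.91 and 2.36), Tnfaip3 (0.60 and 2.37) and Tnip3 (0.40 and 1.47). Bcl3 (0.30 and 1.57) and Zc3h12a (0.56 and 1.74) were regulators too. The targets and adaptors were Traf1, Cflar, Icam1 (0.46 and 2.01) and Cd40 (0.44 and 2.74). The lowest of 3 Cflar probes had an interaction of 0.94. Nfkbia, an inhibitor, was just outside the class at 0.44 and 1.42. For Cd40 the arrays of set 2 overlapped, at -3.84, -0.38, 1.88 and -0.62. Of the 15, 6 had the difference mostly in the start, 6 mostly in the end and 3 in both. None passed the adjusted p of 0.05 for the interaction. Tnfaip3, which encodes the ubiquitin-editing enzyme A20, shows the layout: 3.78, 4.07, 4.79 and 4.26 in set 1 and 2.78, 3.48, 6.23 and 4.77 in set 2, with fragments above controls in both sets and a steeper step in set 2.

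**Figure D4:**
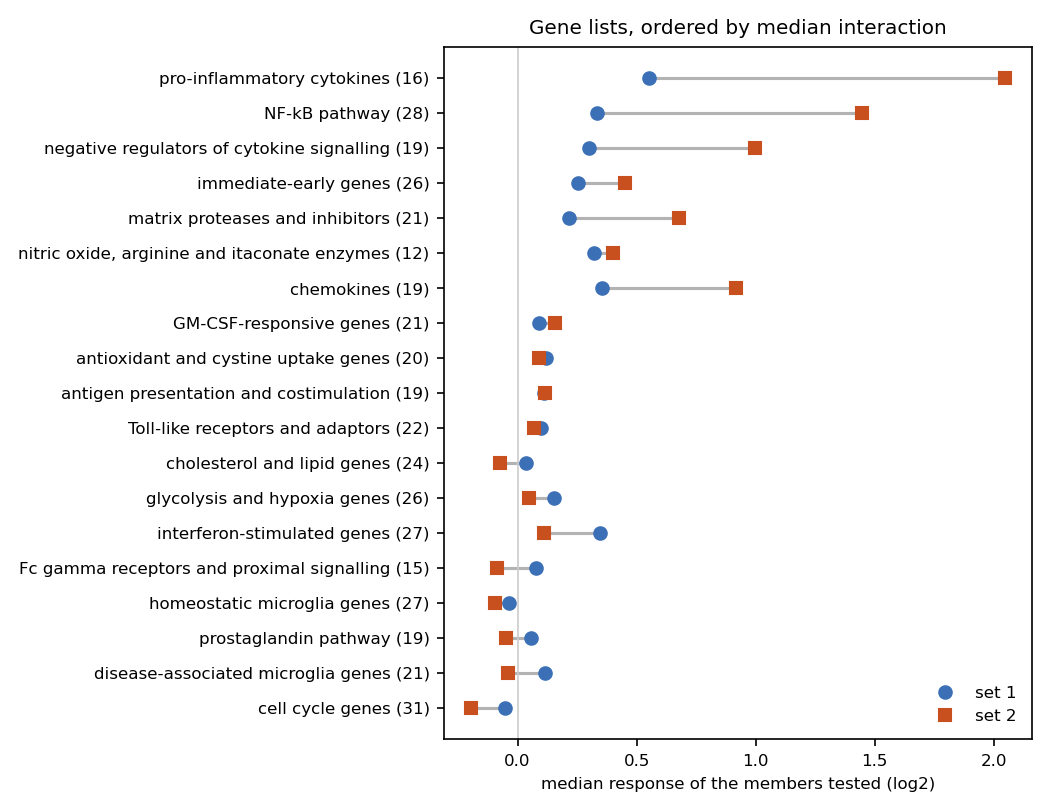
Median response (log2, fragments minus controls) of the tested members of 19 gene lists in set 1 (circles) and set 2 (squares), with the number tested in brackets and the lists ordered by their median interaction. The 16 pro-inflammatory cytokines (0.55 and 2.05) and the 28 NF-kB genes (0.34 and 1.45) have the widest gaps, and most other lists have medians close together.

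The share of promoters with a kappaB match was described in the same windows. Among genes with a promoter in the RefSeq table, 9.55% of 27025 held a match on either strand. Of the genes well above background on all 8 arrays it was 12.1% of 8985, of the class positive and larger in set 2 it was 32.7% (35 of 107), and of the class negative and larger in set 2 it was 4.0% (1 of 25). Within the class positive and larger in set 2, it was 28.9% of 45 genes with the difference mostly in the start. It was 28.6% of 35 with that difference mostly in the end and 44.4% of 27 with a share of both. TGACG was found in 35.7% of the 8985 and 25.2% of the 107, and TGANTCA in 6.39% and 9.35%. TGACG was found in 17.8%, 34.3% and 25.9% of the same 3 kinds. A match is a string of letters and not a bound site.

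Negative regulators of cytokine signalling came next, with a median response of 0.30 in set 1 and 1.0 in set 2. Tnfaip3, Zc3h12a and Bcl3 among them are also in the NF-kB list. Of 19 tested, 5 were positive and larger in set 2. Of all genes 2.2% were, which is the share to set beside the counts below. Socs3, which dampens receptors that signal through STAT3, had responses of 0.68 and 2.16, and Irak3, a brake on Toll-like receptors, 0.42 and 1.42. Of 22 Toll-like receptor and adaptor genes, 3 were positive and larger in set 2 (Tlr2 with 0.09 and 1.44, Cd14 and Irak3) and 1, Tlr11, was negative, with a median interaction of -0.02. In the prostaglandin pathway Ptgs2 stood alone as 1 of 19 tested, and the median responses were 0.06 and -0.05. Of 12 enzymes of nitric oxide, arginine and itaconate, Acod1 and Arg2 (0.24 and 1.66) were in that class. In the matrix list 3 of 21 were, with Mmp14, a membrane-bound protease, at 0.37 and 1.46. Of 19 genes of antigen presentation 2 were, with H2-Eb1, a class II chain, at 0.14 and 1.25.

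Interferon-stimulated genes had the controls of the sets ordered in opposite ways. For 27 of the 27 tested, the Fc array was the higher of the controls in set 1 but the lower of them in set 2, an order that 28.6% of all genes had. Isg15, a ubiquitin-like protein and named after its values were seen, was at 5.52 with PBS, 6.51 with Fc, 7.02 with Ecrg4(71-132) and 5.91 with Ecrg4(133-148) in set 1. In set 2 it was at 3.48, 3.07, 4.56 and 3.60. Fc was above PBS and above Ecrg4(133-148) in set 1 and was the lowest array in set 2. For 0 of the 27 tested members did both fragments lie above both controls in set 1 (27.7% of all genes), and for 9 they did in set 2 (26.2%). The median response was 0.35 in set 1 and 0.11 in set 2, and the median start was -1.33. Gbp5, a guanylate-binding protein, was the 1 member in a response class (5.12% of all genes were in one), at 0.58 and 2.49. The sign for Isg15 turned with the choice of control: its interaction was 0.36 with both controls and -0.34 with PBS alone.

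Immediate-early genes, which respond to a stimulus without new protein synthesis, had a median response of 0.25 in set 1 and 0.45 in set 2. Of 26 tested, both fragments lay above both controls for 18 in each set (27.7% of all genes in set 1 and 26.2% in set 2). Ier3 (0.68 and 1.72) and Maff were positive and larger in set 2. Klf4, a macrophage transcription factor, was negative and larger there. It was at 2.25, 2.19, 1.66 and 2.15 in set 1, against 3.96, 3.67, 1.67 and 2.92 in set 2, so that its start was 1.59 higher and its responses were -0.31 and -1.52. Myc and Nr4a1, named after their values were seen, had fragments on opposite sides of the controls in the 2 sets. Myc was at 1.55, 1.5, 1.71 and 2.18 in set 1, against 1.60, 1.38, 0.49 and 1.15 in set 2, with responses of 0.42 and -0.66. Nr4a1, an orphan nuclear receptor, had responses of -0.30 and 0.49. Both were under the size asked of the opposite classes, and neither interaction passed the adjusted p (0.604 for Myc and 0.563 for Nr4a1 in limma).

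Genes of microglial identity had small interactions, more of them negative. Of 27 homeostatic genes, 15 had a negative interaction in all 4 pairings, against 30.6% of all genes, and the median interaction was -0.10. Cx3cr1, the fractalkine receptor, had a positive interaction from a start 7.45 lower. It was at 4.58 to 4.71 on all 4 arrays of set 1 and at -3.25, -2.36, -0.74 and -1.45 in set 2, with a response of 1.71 that left it 5.79 below set 1. Sparc, a matrix glycoprotein, had responses of -0.37 and 1.1 with overlapping arrays in both sets. Its interaction turned negative (-0.29) with Ecrg4(71-132) as the only fragment. The 3 probes of Sparc had interactions from 0.03 to 1.46.

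Cell cycle genes gave many small differences of 1 sign. Of 31 tested, 3 had a positive interaction (43.9% of all genes), 22 had a negative one in all 4 pairings (30.6%), and the median interaction was -0.18. Both fragments lay below both controls for 22 genes in set 2 (32.3% of all genes) and for 6 in set 1 (21.1%). Mcm6, a helicase subunit of DNA replication that was named after its values were seen, was at 6.35, 6.53, 6.41 and 6.48 in set 1, against 5.13, 5.18, 4.60 and 4.93 in set 2, with responses of 0.01 and -0.39. The list started lower in set 2, by a median of 1.47 on the log2 scale. No member reached a response class. Ccnd1, cyclin D1, had the largest interaction among its members on all 8 arrays at -0.77, with responses of 0.59 and -0.18.

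Other lists had median interactions near 0. GM-CSF-responsive genes started a median 1.61 higher in set 2 and had a median interaction of 0.04. Of 21, 1, the chemokine Ccl17, was in a response class, as were 5.12% of all genes. Ccl17 was at -0.93, -0.83, -1.06 and -1.11 in set 1, against 1.58, 1.56, 3.02 and 2.42 in set 2. Fragments were below controls in set 1 and above them in set 2, with responses of -0.20 and 1.15 and an interaction of 1.35 ± 0.27 (SE; adjusted p of 0.342 in limma). Of 21 disease-associated microglia genes 0 were in a class and 13 had a negative interaction in all 4 pairings (30.6% of all genes), with a median interaction of -0.12. Among them Axl, a receptor for dying cells, was at 3.59 to 3.79 in set 1 and 4.95 to 5.08 in set 2 with an interaction of 0.00 ± 0.12 (SE). The median interaction was 0.02 for the antioxidant genes, -0.05 for glycolysis and hypoxia and -0.04 for cholesterol and lipid genes. In the last list the cholesterol exporter Abca1 was positive and larger in set 2, with responses of -0.02 and 1.11, and among the hypoxia genes the peptide hormone Adm, with 0.46 and 1.54.

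The genes whose signal was lower with fragments in set 2 included regulators of growth and coagulation. Gadd45g, a growth arrest gene, was at 4.77, 4.77, 4.69 and 4.66 in set 1, against 5.49, 5.07, 1.88 and 3.77 in set 2. Set 1 was nearly flat, and in set 2 both fragments were well below both controls, with responses of -0.10 and -2.46 and an interaction of -2.36 ± 0.83 (SE; adjusted p of 0.61 in limma). Thbd, the receptor thrombomodulin, had responses of -0.20 and -1.75, and Cables1, a regulator of cyclin-dependent kinases, -0.46 and -1.91. Fcgr1, the high-affinity Fc gamma receptor, was the only member of its list of 15 in a response class (5.12% of all genes were in one). It was at 2.85, 3.25, 3.38 and 2.87 in set 1, where arrays overlapped, and at 2.45, 2.28, 0.63 and 1.59 in set 2, with responses of 0.08 and -1.25. Both fragments and the Fc control carry the Fc part. Its share in the response of Fcgr1 was not tested, with 1 Fc array in each set.

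**Figure D5:**
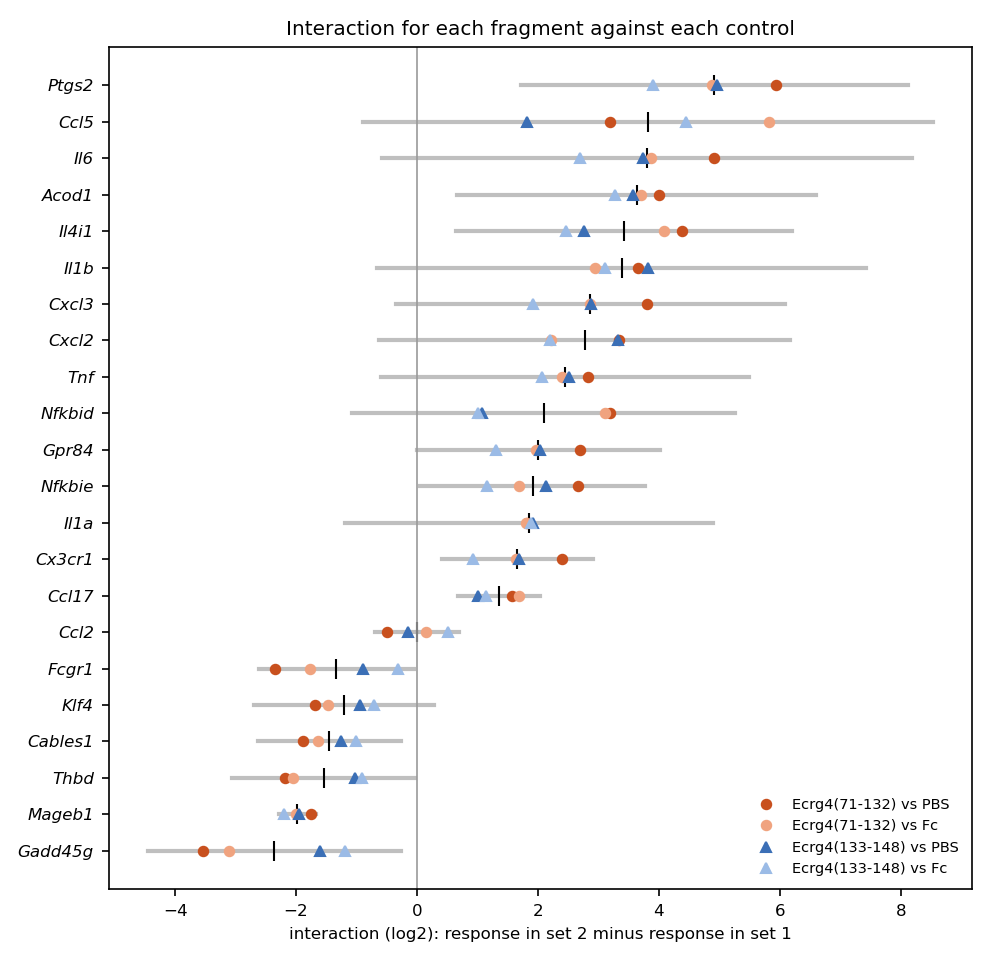
Interaction (log2, response in set 2 minus response in set 1) of 22 genes for each fragment against each control (coloured points), with the mean of the 4 pairings (black tick) and its 95% interval in limma (grey bar). Except for Ccl2, all 4 points of each gene lie on 1 side of 0, while the grey bars of most genes are wide and many cross 0.

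Few genes responded more in set 1 at a level that could be measured on every array. Slc35a5, of the nucleotide sugar transporter family, was at -3.12, -3.15, -1.65 and -1.15 in set 1, against -2.46, -2.39, -2.90 and -2.71 in set 2. Fragments were above controls in set 1 and below them in set 2, with responses of 1.73 and -0.39 and an interaction of -2.12 ± 0.24 (SE; adjusted p of 0.0922 in limma). A second probe of Slc35a5 did not show this, with an interaction of 0.04. Banf2 had responses of 1.62 and 0.12, of which the first rests on 1 array, Ecrg4(71-132), at -0.82 against -4.0 to -3.62 for the rest of set 1. Hmga2, an architectural chromatin protein, had opposite responses of 0.58 and -1.07. Its levels were -0.49, -0.56, -0.09 and 0.20 in set 1 and -0.52, -1.94, -2.37 and -2.24 in set 2. A second probe of Hmga2 had an interaction of -0.91, under the class limit in size.

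The test across all genes called 37 interactions at an adjusted p of 0.05 in limma, 10 positive (0.0464% of 21535) and 27 negative (0.125%). No member of the 27 gene lists was among them. Of the 37, 32 were well above background on exactly 2 arrays, both of 1 cell: 6 in the controls of set 1, 10 in the fragments of set 1, 15 in the controls of set 2 and 1 in the fragments of set 2. These 32 passed the filter only through the cell where they were bright, so their calls are no separate support for a set difference. Of the 666 genes tested that were well above background on exactly 2 arrays, 4.8% were called. Mageb1, a gene of the melanoma antigen family, was the 1 called gene measured on all 8 arrays. It was at -3.20, -3.31, -3.29 and -3.17 in set 1, against -1.46, -1.33, -3.31 and -3.38 in set 2, so the controls of set 2 stood above the other 6 arrays. It fell by 1.95 in set 2, with an interaction of -1.98 ± 0.12 (SE; adjusted p of 0.0101 in limma). That fall rests on fragment levels not far above the floor. The dimmest signals counted as well above background in set 2 were at -4.07 with Ecrg4(71-132) and -3.91 with Ecrg4(133-148). Casp14, a caspase of skin, was the other called gene named here with several measured arrays, at responses of 0.23 and 2.91. Leaving out clone-type names, the smallest p-values belonged to genes of the first kind. Scgb1c1, Asrgl1 and Scn2b were at least 5.99-fold, 6.06-fold and 3.6-fold higher in the controls than in the fragments of set 1, and Olfr851 and Olfr510, olfactory receptor genes, at least 5.99-fold and 7.12-fold higher in the controls of set 2. Pabpc6 was at least 10-fold higher in the fragments of set 1. Within each set alone, 24 responses were called in set 1 (0.0697% up and 0.0418% down) and 83 in set 2 (0.163% up and 0.223% down).

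The number of interactions that passed turned on the array of Ecrg4(133-148) in set 2. Without it, limma called 221 of all genes tested and, 775 when limited to those measured on all 8 arrays, of which 393 were positive and 382 negative. That fit leaves 1 fragment array in set 2 and assumes that it varies like the other cells. The 775 included Ptgs2 (interaction 6.11, adjusted p of 0.0358), Il4i1 (4.52), Traf1 (4.1), Nfkbid (3.5), Tnfaip3 (2.49), Cd14 (2.39), Tnfsf9 (2.37), Cables1 (-1.93), Klf4 (-1.83) and Gadd45g (-3.30). With any of the other 7 arrays left out, the count among these genes was 0 to 8. These 10 genes were not picked by a rule. On the set 2 arrays they were further from the controls with Ecrg4(71-132) than with Ecrg4(133-148). Mageb1, which passed there too, was slightly further with Ecrg4(133-148), at -3.38 against -3.31 with Ecrg4(71-132). The difference between fragments is part of the spread against which the interaction was tested. With the set as a replicate block and a term for each treatment, 0 interactions passed, at 2217 with an unadjusted p under 0.05, on 2 residual degrees of freedom.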

How the data were processed

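RNA was labelled with Cy3 and hybridised to one-colour Agilent arrays. The submitters' processing notes name Agilent Feature Extraction 11.0.1.1, whose deposited files give background-subtracted intensity on a linear scale. The authors' value table is in log2 and differs from the scanner values by a single constant on each array (r of 1, column medians -4.47 to -4.20). The sources used here do not give the origin of that constant. Between 24242 and 29474 of 55681 probes per array were well above background, and no spot was saturated. The number of arrays limits the precision.

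Log2 intensity minus each array's 75th percentile was computed, outlying spots were left out (104 probes), and spots of a probe were averaged. Names came from RefSeq accessions for 28026 probes (assembly GRCm38.p6), and 27655 kept the file's name. A probe was kept if both arrays of any cell had it well above background, and the brightest probe stood for its gene, which gave 21535 genes. Limma 3.58.1 in R 4.3.3 was fitted with 4 cell means, 4 residual degrees of freedom and Benjamini-Hochberg adjustment over all genes. It was tested on simulated data. Where a cell was not well above background on any array, the fold is a bound, written "at least": the bright cell's mean against a floor, averaged over the dim arrays, that is the probe's own signal or, if larger, the dimmest signal counted as well above background on that array.

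Genes were named by rule: the 3 markers, the 5 largest interactions of each class on all 8 arrays with 4 pairings of 1 sign and no clone name, the 3 smallest p-values in each direction (clone-type names left out here too), and list members in a class or with the largest or smallest interaction. Other names are said to be chosen after their values were seen, as were Nfkbia, Casp14 and the marker genes of cell types given as levels. The markers, the 27 gene lists and the comparison were chosen with earlier results of these data known. Same-numbered arrays deviated together (correlations of 0.805 to 0.894 over 6 pairs of treatments), so the set pairs the arrays, and it is a term of the fit. A result on 1 gene is not reported here.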

Additional observations from a re-analysis of the deposited data

Results flagged for a closer look

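Some genes differed between the sets by limma's test of the interaction at an adjusted p of 0.05. Mageb1, near the floor on its set 2 fragment arrays, had an interaction of -1.98, with the 2 set 2 controls above the other 6 arrays. Casp14 had 2.68, well above background on 7 arrays. The interaction was 4.71 for Scgb1c1, 4.55 for Asrgl1 and 4.01 for Scn2b, each well above background on the control arrays of set 1 only. Olfr851 (-5.33) and Olfr510 (-5.58) were well above background on the control arrays of set 2 only, and Pabpc6 (-5.43) on the fragment arrays of set 1 only. The signals below background enter these sizes as measured. Apart from Mageb1 and Casp14, these genes passed the filter only through the 2 arrays where they were bright. Their calls are no separate support for a set difference.

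Other genes had every fragment array on 1 side of both controls in set 1 and on the opposite side in set 2. They were Ccl17 (interaction 1.35), Vmn1r65 (-1.50), Slc35a5 (-2.12), Hmga2 (-1.65), Myc (-1.08) and Nr4a1 (0.79). The opposite direction itself was not tested, and none of these interactions passed the adjusted p of 0.05.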

How the results depend on the processing

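The interactions of Ptgs2, Il6 and Il1b kept their sign under every alternative run, from 3.73 to 6.11, 2.30 to 5.31 and 2.21 to 4.55 when single arrays were left out, and none passed the adjusted p of 0.05 over all genes tested. With normexp background correction these interactions were 3.68 (Ptgs2), 3.365 (Il6) and 3.41 (Il1b). The counts moved with the processing, and the cause was not tested. Leaving out 1 array at a time gave 2 to 221 called interactions (0 to 775 among genes on all 8 arrays), 13 to 45 responses in set 1, 17 to 3642 in set 2, 633 to 1282 genes with a larger response in set 2 (148 to 604 on all 8 arrays) and 118 to 197 with opposite responses. Against 37 with all arrays, the called interactions were 2 without PBS and 2 without Fc of set 1, 102 without PBS and 99 without Fc of set 2, 32 and 43 without Ecrg4(71-132) and Ecrg4(133-148) of set 1, and 55 without Ecrg4(71-132) of set 2. The extremes of 221, 775, 3642, 1282 and 604 came without Ecrg4(133-148) of set 2. In the remaining settings the counts are given in the order called interactions, responses in set 1 and responses in set 2. Normexp gave 1, 8 and 23, with 298, 68 and 2 genes larger in set 2, larger in set 1 and opposite (164 larger in set 2 on all 8 arrays). Without a filter the calls were 23 and, in set 2, 14, with 17598 differences at the start and classes of 1569, 1398 and 848. Testing only genes on all 8 arrays, with fewer genes in the fit, gave 1, 0 and 1, with classes of 251, 18 and 4. The replicate block with treatment terms gave 0, 0 and 3 (0 among genes on all 8 arrays). Fc alone gave 0, 0 and 0, with 1033, 855 and 1740 at an unadjusted p under 0.05 and 3932 at the start. PBS alone gave 0, 1 and 47, with 4424 at the start, 373 larger in set 1 and 254 opposite. Ecrg4(71-132) alone gave 5, 0 and 3034, with 1120 larger in set 2 (496 on all 8 arrays), and Ecrg4(133-148) alone gave 0, 0 and 2. Limma with trend and robust settings called 19 interactions, an adjusted p of 0.1 called 61, and quantile normalization left 60 opposite genes. Class limits of log2 of 1.5 gave 1539, 474 and 478, and limits of 2 gave 214, 96 and 67. Median scaling moved the median interaction from -0.03 to -0.11 and the share of positive interactions from 43.9% to 33.3%.

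The interactions of Il18, Axl, Ccl2, Ccl7, Isg15, Il1rn, Ch25h and Sparc changed sign in some settings, and that of Sparc (1.46 with all arrays) was in a response class. Il18 was at 0.015 with normexp, 0.00059 with the percentile over probes measured on all arrays, 0.061 with Fc alone and 0.012 with Ecrg4(133-148) alone. Axl was at -0.018 with quantile normalization, -0.070 with median scaling, -0.045 with PBS alone and -0.018 with Ecrg4(71-132) alone. Ccl2 was at -0.070 with median scaling, -0.32 with PBS alone and -0.18 with Ecrg4(71-132) alone. Ccl7 was at 0.050 with Fc alone, Isg15 at -0.34 with PBS alone, and Sparc at -0.29 and Il1rn at 0.079 with Ecrg4(71-132) alone. With single arrays left out they ranged from -0.16 to 0.12 (Il18), -0.094 to 0.10 (Axl), -0.24 to 0.24 (Ccl2), -0.86 to 0.21 (Il1rn), -0.20 to 0.91 (Isg15), -0.21 to 0.95 (Ch25h) and -0.033 to 2.96 (Sparc). Probes not well above background limit the fold to a bound, and 2 arrays per cell leave wide intervals. The class counts on all 8 arrays and the fit without single arrays among those genes were added after seeing the data.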
